A study of Homo sapiens with 9 samples.

Results

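NQO1, HMOX1, GCLM, GCLC, TXNRD1, SRXN1, ME1, FTL and FTH1 are targets of the transcription factor NRF2 and were followed here in melanoma cells in which the histone demethylase gene PHF8 had been targeted. The 9 genes were taken by symbol, as textbook members of the antioxidant response, from the 57736 genes of the count tables. They were chosen with earlier results of these data known, so their counts beside those of all genes describe this set and are no test of it. The cells were SKMEL-147, an established human melanoma line, made to express Cas9 with the lentiCas9-Blast vector and then transduced with pLKO-sgRNA-GFP carrying a scrambled guide (sgScr) or 1 of 2 guides against PHF8 (sgPHF8-1 and sgPHF8-3). All 3 groups carried Cas9, whose carriers had been selected by blasticidin, and a guide vector, and each group was a pool of transduced cells rather than a clone. RNA depleted of ribosomal RNA was sequenced in 3 replicates (A, B and C) per group. The question for these genes is whether their mRNA differs from the scrambled control with each guide, and whether the guides differ from each other. Both guides were compared with the same sgScr libraries, so the 2 comparisons are not independent of each other.

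NRF2, encoded by NFE2L2, is held at a low level by KEAP1, which presents it to the CUL3-RBX1 ubiquitin ligase. Electrophiles and oxidants modify KEAP1, NRF2 accumulates, pairs with a small MAF protein and binds antioxidant response elements near its target genes, while BACH1 competes for the same elements. The targets make quinone reductase, heme oxygenase, glutathione, thioredoxin reductase, NADPH and ferritin, and together they detoxify reactive compounds and limit free iron. In cells of the melanocyte lineage pigment synthesis is itself a source of oxidants.

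Because these genes are grouped by a regulatory element, the element itself is shown for the genes whose upstream sequence holds its core. The core TGACNNNGC was searched on both strands in the 1000 bases before the start of the canonical transcript on GRCh37. Among the 7 genes with an entry in the RefSeq promoter table (all but HMOX1 and FTH1), 5 held it, namely NQO1, GCLM, GCLC, TXNRD1 and ME1, and FTL and SRXN1 held none in this window. The core is short, and 32.5% of 19871 windows of protein-coding genes of the same length held it. In the shorter RefSeq promoters (GRCh38.p14, 250 bases before to 50 after the start) GCLM, TXNRD1 and ME1 held it, against 13.3% of 35116 promoters. There TXNRD1 held another match that begins 8 bases before the start and runs into it, and ME1 another that begins 11 bases after the start, neither of which is shown. Each sequence below runs 5′ to 3′ on the strand of its gene, with the core in capitals.
NQO1 (chr16:69760894-69760934, minus strand, core starting 455 bases before the start): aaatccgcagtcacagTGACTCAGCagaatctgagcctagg
GCLM (chr1:94374996-94375036, minus strand, 34 bases before the start): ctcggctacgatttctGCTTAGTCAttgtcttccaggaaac
GCLC (chr6:53410745-53410785, minus strand, 870 bases before the start): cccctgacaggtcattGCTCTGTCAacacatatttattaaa
TXNRD1 (chr12:104609442-104609482, plus strand, 99 bases before the start): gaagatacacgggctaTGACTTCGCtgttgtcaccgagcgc
TXNRD1, internal start site (chr12:104680692-104680732, plus strand, 102 bases before that start): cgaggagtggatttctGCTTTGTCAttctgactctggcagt
ME1 (chr6:84140883-84140923, minus strand, 137 bases before the start): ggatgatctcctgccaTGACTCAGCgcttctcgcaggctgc
The NQO1 and ME1 elements share the 9-base core TGACTCAGC, which contains TGACTCA, the motif of the AP-1 factors, so both motifs overlap there. In GCLM, GCLC and the internal TXNRD1 site the core lies on the opposite strand. These are letter matches, and binding was not measured in these libraries.

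The 9 libraries held 17366120 to 19838142 counts, and 14614 genes passed the filter on low counts, including all 9 antioxidant genes. PHF8 itself was read at 655, 606 and 634 normalized counts in sgScr, 564, 571 and 565 with sgPHF8-1, and 400, 387 and 434 with sgPHF8-3. The groups did not overlap, and the log2 fold change was -0.16 ± 0.055 (SE, adjusted p = 0.0253) with sgPHF8-1 and -0.63 ± 0.058 (adjusted p = 2.32e-11) with sgPHF8-3 by edgeR's quasi-likelihood test. The sgPHF8-1 call was lost with DESeq2 (adjusted p = 0.103) and without sgScr replicate A, sgScr replicate C, sgPHF8-1 replicate A or sgPHF8-1 replicate C, with a highest adjusted p of 0.119. Cas9 cuts need not lower mRNA, so these reads do not measure the protein. By Western blot, the paper reports efficient PHF8 knockout with both guides in SKMEL-147, and more H4K20me1, a histone mark that PHF8 removes. Library sgPHF8-1 replicate B stood somewhat apart, with 22427 genes detected against 23035 to 23229 in the other libraries. So did sgPHF8-3 replicate C, which had the fewest counts and 4.25% small noncoding RNA, against 4.62 to 5.13% in the other libraries. Small noncoding RNA took 4.91 to 5.13% of counts in sgScr and sgPHF8-1 and 4.25 to 4.63% in sgPHF8-3, and the part of this difference in the results was not tested. As for identity, the pigment genes PMEL, MLANA, TYR, DCT and TYRP1 and the lineage marker S100B had at most 12 raw counts in any library. The lineage factor SOX10 had 2314 to 3046 and the lineage factor MITF 194 to 290. Of the 6 markers of dedifferentiated melanoma, AXL had 26107 to 29963 and NGFR 6758 to 12785. Of 6 measured markers of other cell types, PTPRC, EPCAM, CDH5 and DCN had at most 3 raw counts, KRT8 had 64 to 107 and COL1A1 63 to 98.

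Markers of melanoma cell state moved with the guides too. NGFR, a neural crest receptor, was lower by a log2 fold change of -0.70 with sgPHF8-1 (adjusted p = 2.74e-21) and -0.29 with sgPHF8-3 (adjusted p = 1.81e-09), and SOX10 by -0.18 and -0.11 (adjusted p = 1.74e-05 and 0.00831), its second call being lost without sgScr replicate A (adjusted p = 0.0631). With sgPHF8-1, NT5E was also lower (-0.18, adjusted p = 5.24e-06), and JUN (0.18, adjusted p = 4.74e-06) and SOX9 (0.25, adjusted p = 0.00926) were higher, the SOX9 call being lost without sgScr replicate C (adjusted p = 0.0934). With sgPHF8-3, EGFR was called higher (0.10, adjusted p = 0.0436), which was lost with DESeq2 and in several other alternatives (highest adjusted p = 0.308). AXL and MITF passed with neither guide against sgScr. Several markers also differed between the guides. NGFR (0.41, adjusted p = 1.27e-12), EGFR (0.18, adjusted p = 0.0012), NT5E (0.17, adjusted p = 5.78e-05) and MITF (0.28, adjusted p = 0.0219) were higher with sgPHF8-3 than with sgPHF8-1. JUN was lower (-0.22, adjusted p = 1.08e-06). Of the 6 dedifferentiation markers, 2 were thus called higher and 2 lower with sgPHF8-1, where 15.5% of all genes tested were higher and 15.7% lower. With sgPHF8-3, 1 was called each way, against 9.89% higher and 10.1% lower. Between the guides, 3 were called higher with sgPHF8-3 and 1 lower, against 6.06% and 5.11% of all genes. The part of cell state in the results for the antioxidant genes was not tested.

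With sgPHF8-1, 6 of the 9 antioxidant genes rose (NQO1, HMOX1, GCLM, TXNRD1, FTL and FTH1) and none fell. Over all genes tested, 31.2% passed the same test in either direction, 15.5% as higher and 15.7% as lower, so a large share of the transcriptome moved with this guide. With sgPHF8-3, 5 rose (the same genes without FTH1) and none fell, against a background of 20% in either direction, 9.89% higher and 10.1% lower. Across both guides 5 genes rose in each, whereas 6.72% of all genes were higher and 7.48% lower in both. The median log2 fold change of the 9 genes was 0.33 with sgPHF8-1 and 0.17 with sgPHF8-3, against 0.00 and -0.00076 over all genes. The largest change was that of HMOX1, and GCLC, SRXN1 and ME1 passed the test with neither guide. In the mean of both guides, 6 of 9 rose, against 15.1% of all genes (14.9% were lower, and 30% were called in either direction). By a threshold from the study's methods (unadjusted p under 0.05 and an absolute log2 fold change above 0.25), applied here to edgeR's values, 5 genes were called with sgPHF8-1 (15% of all genes), 3 with sgPHF8-3 (9.49%) and 2 between the guides (5.71%). Bulk libraries cannot tell more RNA per cell from more cells of a kind that expresses a gene.

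**Figure D1:**
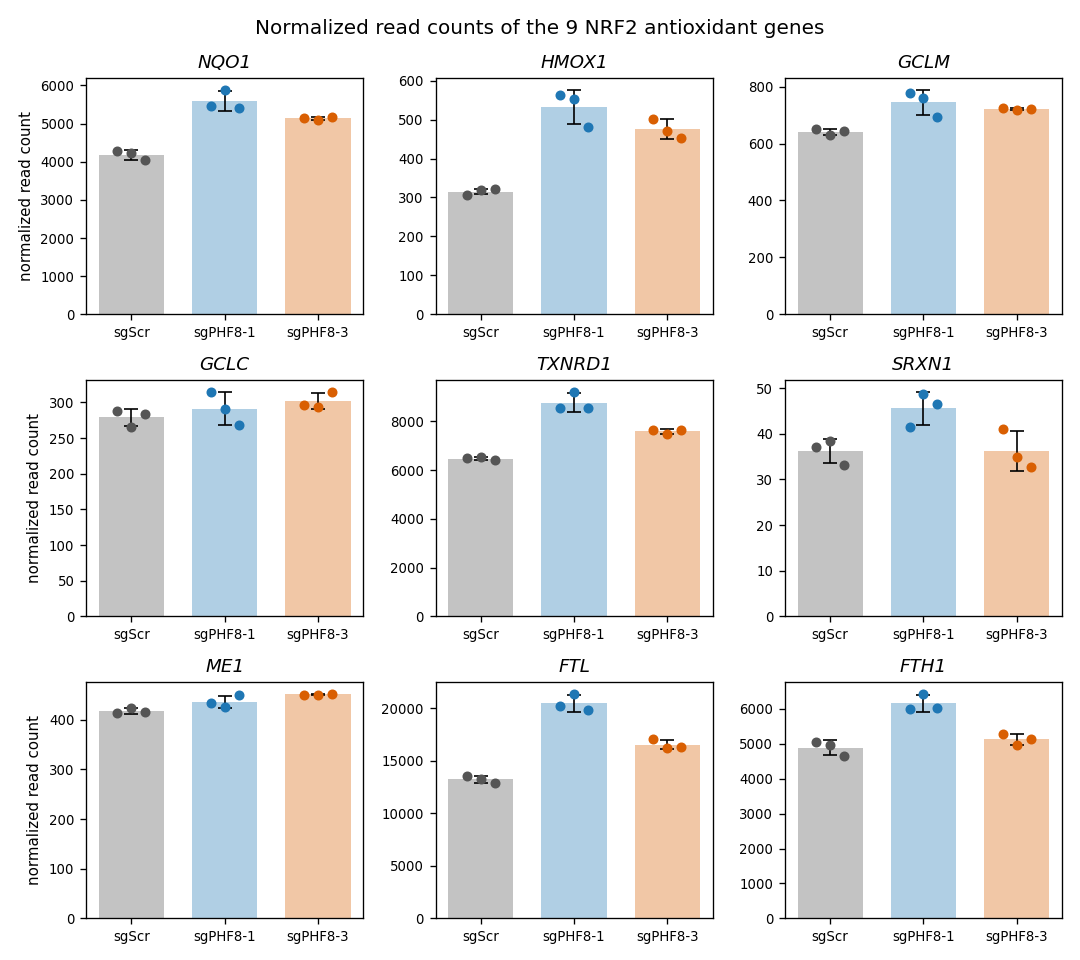
Normalized read counts (vertical axes, from 0) of the 9 antioxidant genes in sgScr, sgPHF8-1 and sgPHF8-3. Points are single libraries, bars are means and error bars are SD (n = 3); all 3 HMOX1 values of each PHF8 guide (454 to 562) sit above the sgScr values (307 to 321), while the GCLC values of sgScr and sgPHF8-1 overlap.

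NQO1, the NAD(P)H quinone reductase that reduces quinones without forming semiquinone radicals, lies at chr16:69740899-69760571 on the minus strand (GRCh37) and has 6 exons. Its normalized counts were 4275, 4231 and 4040 in sgScr. They were 5450, 5891 and 5415 with sgPHF8-1, and 5143, 5106 and 5186 with sgPHF8-3. Every library with a PHF8 guide was thus above every sgScr library, and the highest value was that of sgPHF8-1 replicate B. The log2 fold change was 0.42 ± 0.032 (SE, adjusted p = 5.51e-14) with sgPHF8-1 and 0.30 ± 0.032 (adjusted p = 1.63e-09) with sgPHF8-3. Without sgPHF8-1 replicate B the first value was 0.38. The lower level with sgPHF8-3 than with sgPHF8-1, -0.12 ± 0.032 (adjusted p = 0.0102), lost its call without sgPHF8-1 replicate B (-0.08, adjusted p = 0.0621) and without sgPHF8-3 replicate B (adjusted p = 0.0643).

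HMOX1, heme oxygenase 1, which opens heme to biliverdin, carbon monoxide and iron, lies at chr22:35776354-35790207 on the plus strand and has 5 exons. It was read at 307, 318 and 321 normalized counts in sgScr. With sgPHF8-1 it stood at 562, 554 and 482, and with sgPHF8-3 at 503, 470 and 454. HMOX1 had the greatest relative rise of the 9 genes with both guides, 1.69-fold and 1.51-fold, on the log2 scale 0.76 ± 0.066 (adjusted p = 2.69e-12) and 0.59 ± 0.068 (adjusted p = 6.01e-09). The guide values overlapped, because sgPHF8-1 replicate C lay below sgPHF8-3 replicate A. Their difference of -0.16 ± 0.063 did not pass (adjusted p = 0.0886), and it was called without sgPHF8-1 replicate C (-0.23, adjusted p = 0.0185). HMOX2, the constitutive heme oxygenase, passed the test with neither guide, with means of 507 ± 17.9, 505 ± 18.8 and 466 ± 43.3 normalized counts (SD, n = 3) in sgScr, sgPHF8-1 and sgPHF8-3.

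Glutamate-cysteine ligase makes the rate-limiting step of glutathione synthesis from the catalytic subunit GCLC and the modifier subunit GCLM. GCLM (chr1:94350755-94375012, minus strand, 7 exons) was read at 650, 629 and 644 normalized counts in sgScr, 779, 762 and 694 with sgPHF8-1, and 725, 716 and 721 with sgPHF8-3. All guide libraries were above all sgScr libraries, by a log2 fold change of 0.22 ± 0.051 (adjusted p = 0.000908) and 0.17 ± 0.051 (adjusted p = 0.0149). The sgPHF8-3 call was lost with DESeq2 (adjusted p = 0.067) and without sgScr replicate B (adjusted p = 0.0691). GCLC (chr6:53362139-53481768, minus strand, 16 exons) was read at 288, 265 and 284 in sgScr, 314, 291 and 269 with sgPHF8-1, and 296, 294 and 315 with sgPHF8-3. The sgPHF8-1 values overlapped those of sgScr, and the sgPHF8-3 values lay just above them. The GCLC log2 fold changes of 0.06 ± 0.076 (adjusted p = 0.581) and 0.11 ± 0.075 (adjusted p = 0.321) did not pass. For each subunit the difference between guides did not pass either, at -0.05 ± 0.051 for GCLM (adjusted p = 0.630) and 0.05 ± 0.076 for GCLC (adjusted p = 0.764).

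The subunits can also be compared within a library, where no scaling enters. GCLM reads per GCLC read numbered 2.26, 2.38 and 2.27 in sgScr, 2.48, 2.62 and 2.59 with sgPHF8-1, and 2.45, 2.44 and 2.29 with sgPHF8-3. The ratio was higher in every sgPHF8-1 library than in any sgScr library, and the sgPHF8-3 values overlapped those of sgScr. An exact two-sided permutation test gave p = 0.1 for sgPHF8-1, the smallest value that 3 against 3 libraries allow, and p = 0.2 for sgPHF8-3. The sgPHF8-3 values lay wholly below those of sgPHF8-1, at 0.934 times their mean (exact permutation p = 0.1). These ratios and those of ferritin below were chosen after the values were seen, 6 comparisons were made in all, and none could pass an adjusted threshold.

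TXNRD1, the cytosolic selenoenzyme that keeps thioredoxin reduced with NADPH, lies at chr12:104609557-104744085 on the plus strand, with 17 exons in the canonical transcript. Its normalized counts were 6499, 6521 and 6418 in sgScr. They reached 8553, 9224 and 8541 with sgPHF8-1 and 7664, 7482 and 7636 with sgPHF8-3. The 3 groups were fully separated, in the order sgScr, sgPHF8-3, sgPHF8-1, and TXNRD1 rose by 0.44 ± 0.030 (adjusted p = 2.17e-15) and 0.23 ± 0.030 (adjusted p = 1.9e-07) on the log2 scale. It was lower with sgPHF8-3 than with sgPHF8-1 by -0.21 ± 0.030 (adjusted p = 3.34e-06), and by -0.17 without sgPHF8-1 replicate B. RPL18AP3, a ribosomal pseudogene inside the gene, held reads amounting to 1.48% of those of TXNRD1.

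SRXN1, sulfiredoxin, which reactivates overoxidized peroxiredoxins, was the least covered of the 9 genes (chr20:627259-633844, minus strand, 2 exons). It was read at 37.2, 38.4 and 33.2 normalized counts in sgScr, 41.5, 48.7 and 46.5 with sgPHF8-1, and 41.2, 34.8 and 32.8 with sgPHF8-3. The sgPHF8-1 libraries were all above sgScr, but the log2 fold change of 0.32 ± 0.19 did not pass (adjusted p = 0.194), and with sgPHF8-3 it was 0.00 ± 0.20 (adjusted p = 0.994). At this depth the standard error of SRXN1 exceeded the whole change called for GCLM with sgPHF8-3 (0.17), so a change of that size was not detectable.

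ME1, the cytosolic malic enzyme that supplies NADPH, lies at chr6:83920121-84140770 on the minus strand and has 14 exons. Its normalized counts were 414, 424 and 415 in sgScr, 434, 425 and 450 with sgPHF8-1, and 449.8, 449.96 and 452 with sgPHF8-3. Neither guide group overlapped sgScr, yet the log2 fold changes of 0.06 ± 0.060 (adjusted p = 0.481) and 0.11 ± 0.060 (adjusted p = 0.207) did not pass. The ME1 values with sgPHF8-3 had an SD of 1.49, below the counting error of so many reads. Counting genes by overlap alone therefore gives more than the test does: 8 of 9 genes had every sgPHF8-1 library above every sgScr library, against 21.1% of all genes, and 7 of 9 had so with sgPHF8-3, against 18.7%.

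Ferritin stores iron in a shell of light chains (FTL) and heavy chains (FTH1), of which the heavy chain oxidizes iron. FTL (chr19:49468566-49470136, plus strand, 4 exons) was read at 13516, 13217 and 12923 normalized counts in sgScr, 20195, 21378 and 19830 with sgPHF8-1, and 17032, 16217 and 16340 with sgPHF8-3. FTL was fully separated in the order sgScr, sgPHF8-3, sgPHF8-1. The log2 fold change was 0.63 ± 0.030 (adjusted p = 1.68e-20) with sgPHF8-1 and 0.32 ± 0.030 (adjusted p = 5.09e-11) with sgPHF8-3. The guides differed by -0.31 ± 0.030 (adjusted p = 7.58e-10).

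FTH1 (chr11:61727190-61735106, minus strand, 4 exons) was read at 5052, 4962 and 4646 in sgScr, 6008, 6439 and 6031 with sgPHF8-1, and 5276, 4974 and 5140 with sgPHF8-3. All sgPHF8-1 libraries were above the others, whereas the lowest sgPHF8-3 library lay within the sgScr range. FTH1 rose by 0.33 ± 0.033 (adjusted p = 6.42e-11) with sgPHF8-1, was 0.07 ± 0.033 with sgPHF8-3 (adjusted p = 0.137) and was lower with sgPHF8-3 than with sgPHF8-1 by -0.26 ± 0.033 (adjusted p = 1.73e-07). FTL and FTH1 have many processed pseudogenes, which share sequence with them, so reads of both could be split. Reads assigned to 16 FTL pseudogenes came to 0.0945% of those of FTL, and reads assigned to 25 FTH1 pseudogenes to 0.856% of those of FTH1. Reads that matched a gene and a pseudogene alike may be in neither count, because the count rule is not given, so such losses were not measured.

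Light chain reads per heavy chain read numbered 2.68, 2.66 and 2.78 in sgScr, 3.36, 3.32 and 3.29 with sgPHF8-1, and 3.23, 3.26 and 3.18 with sgPHF8-3. The ratio was thus 1.23 times the sgScr mean with sgPHF8-1 and 1.19 times with sgPHF8-3, with no overlap. The exact two-sided permutation test gave p = 0.1 for each, which 3 against 3 libraries cannot go below. With sgPHF8-3 the ratio was also wholly below that with sgPHF8-1, at 0.970 times its mean (exact permutation p = 0.1). Unlike the level of FTH1, this ratio stood above sgScr with both guides. Being a ratio of reads of the same library, it describes an unequal change of the 2 chains in these libraries and not which of them changed.

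**Figure D2:**
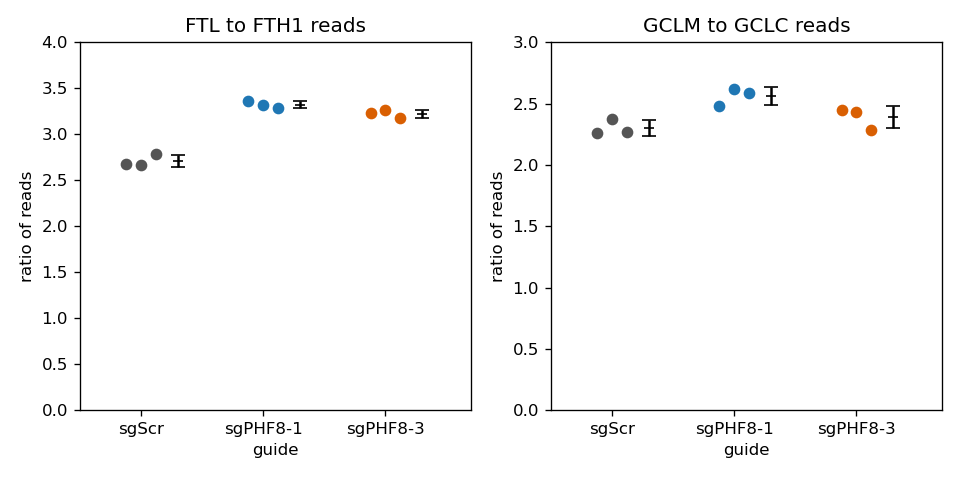
FTL reads per FTH1 read and GCLM reads per GCLC read (vertical axes, from 0) in each library, with mean and SD (n = 3) beside the points. The FTL to FTH1 ratio is 2.66 to 2.78 in sgScr and 3.18 to 3.36 in the guide libraries.

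Between the guides, 4 of the 9 genes were lower with sgPHF8-3 than with sgPHF8-1 (NQO1, TXNRD1, FTL and FTH1) and none was higher, against 5.11% of all genes lower, 6.06% higher and 11.2% called in either direction. By overlap alone, the same 4 genes and SRXN1, 5 in all, lay wholly lower (12.4% of all genes), and ME1 lay wholly higher (13%). The median log2 difference of the 9 genes was -0.16, against -0.00060 over all genes. PHF8 mRNA differed between the guides as well, by -0.48 ± 0.060 (adjusted p = 1.73e-07), and was the lower with sgPHF8-3. The guide with the lower PHF8 mRNA was thus the one with the lower level of these 4 genes, and whether the amount of PHF8 has a part in this was not tested.

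**Figure D3:**
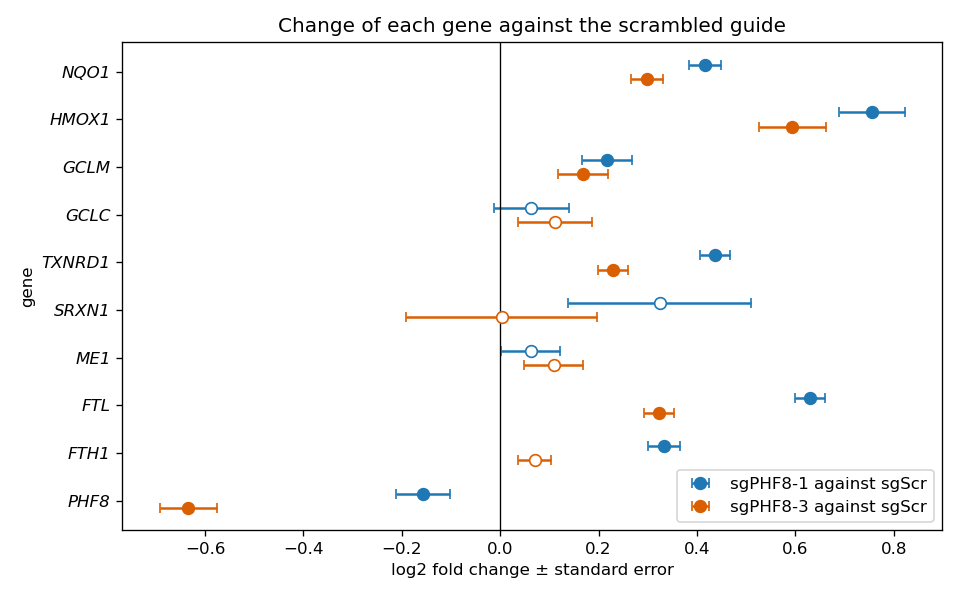
Log2 fold change against sgScr (horizontal axis) of the 9 antioxidant genes and PHF8, with error bars of 1 standard error; filled points passed the test (adjusted p under 0.05) and open points did not. HMOX1 stands farthest to the right with both guides (0.76 and 0.59), and PHF8 is the only gene to the left of 0.

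Per length of the canonical transcript, the 9 genes spanned a wide range in sgScr. FTL had 819 ± 17.6 counts per 1000000 counts of the library (CPM) and per kilobase (SD, n = 3) and FTH1 219 ± 9.38. TXNRD1 with 90.6 ± 0.713 and NQO1 with 89.5 ± 2.61 did not differ beyond their spread, and their order turned when all exons of each gene were counted as its length (52.1 and 76.0). HMOX1 followed with 10.95 ± 0.275, then GCLM with 7.08 ± 0.116 and ME1 with 6.75 ± 0.0910, an order that also turned with all exons (6.38 and 6.75). GCLC had 3.98 ± 0.174 and SRXN1 0.774 ± 0.0572. The genes that did not pass the test with either guide, ME1, GCLC and SRXN1, were the 3 lowest on the canonical length, though with all exons GCLM stood below ME1. On the same scale FTL stood at 1268 ± 45.0 with sgPHF8-1 and 1024 ± 26.3 with sgPHF8-3, and HMOX1 at 18.5 ± 1.51 and 16.5 ± 0.848.

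**Figure D4:**
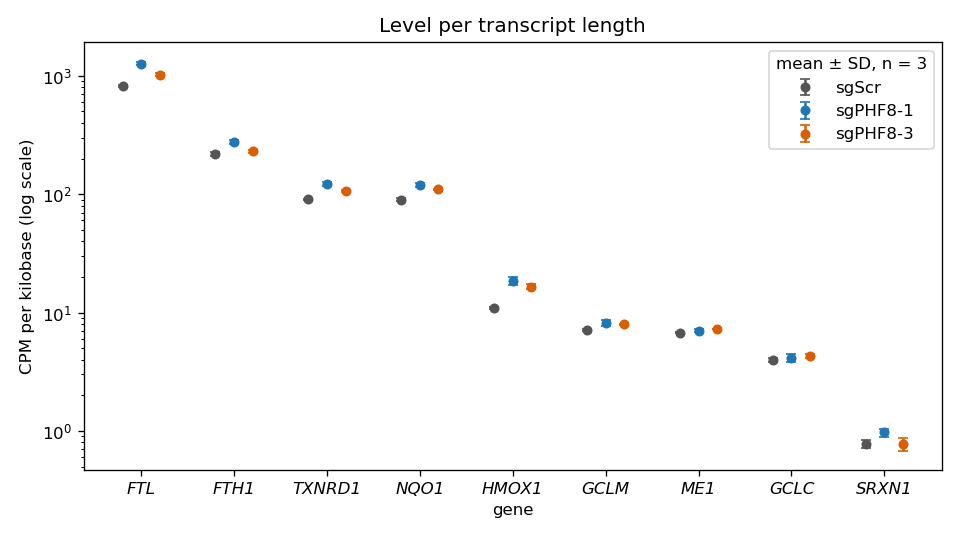
CPM per kilobase of canonical transcript (log axis) for the 9 antioxidant genes in each group, as mean and SD (n = 3). Levels run from 819 for FTL to 0.774 for SRXN1 in sgScr.

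The regulators of the pathway had median log2 fold changes of 0.03 with sgPHF8-1 and 0.01 with sgPHF8-3. NFE2L2, which encodes NRF2, had means of 1408 ± 35.0, 1338 ± 72.0 and 1386 ± 52.1 normalized counts (SD, n = 3) in sgScr, sgPHF8-1 and sgPHF8-3, and its log2 fold changes of -0.07 and -0.02 did not pass (adjusted p = 0.181 and 0.747). KEAP1, its inhibitor, stood at -0.08 and -0.06 (adjusted p = 0.117 and 0.340), and was called lower with sgPHF8-1 only without sgPHF8-1 replicate B (adjusted p = 0.0313). CUL3 and RBX1, of the ligase that KEAP1 serves, and BACH2 passed with neither guide. NRF2 is controlled mainly through its protein, which mRNA counts do not show.

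Of the NRF2 partners, MAFF rose by 0.36 and 0.40 on the log2 scale (adjusted p = 1.04e-07 and 1.91e-08) and MAFG by 0.20 with each guide (adjusted p = 6.79e-05 and 0.00016). MAFK was lower with sgPHF8-1 (-0.20, adjusted p = 0.0348), a call lost on leaving out sgScr replicate B or C, sgPHF8-1 replicate A or B, or sgPHF8-3 replicate B (highest adjusted p = 0.159), and it did not pass with sgPHF8-3 (-0.18, adjusted p = 0.0870). The sgPHF8-3 difference of MAFK was called with no filter on low counts (adjusted p = 0.00983), in a fit of only the groups compared (adjusted p = 0.0111) and without sgPHF8-1 replicate B or C (adjusted p = 0.00867 and 0.0333). SQSTM1, the autophagy receptor p62 that binds KEAP1 and is itself an NRF2 target, rose by 0.37 and 0.20 (adjusted p = 2.26e-13 and 3.47e-06), and by less with sgPHF8-3 (difference -0.18, adjusted p = 5.78e-05). BACH1, the competing repressor, was higher with sgPHF8-1 (0.11, adjusted p = 0.0138), which was lost with DESeq2 (adjusted p = 0.0519), with no filter on low counts (adjusted p = 0.0538) and without sgScr replicate B or C (highest adjusted p = 0.0961), and stood at 0.04 with sgPHF8-3 (adjusted p = 0.439). NFE2L1, the NRF2 relative that controls proteasome genes, was lower by -0.11 and -0.10 (adjusted p = 0.00416 and 0.0126), and the sgPHF8-3 call was lost without sgScr replicate B or sgPHF8-3 replicate C (adjusted p = 0.101 and 0.0855). In all, 4 of the 11 regulators rose and 2 fell with sgPHF8-1, where 15.5% of all genes were called higher and 15.7% lower. With sgPHF8-3, 3 rose and 1 fell, against 9.89% and 10.1% of all genes.

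Of 34 other textbook NRF2 targets, 27 passed the filter, of which 7 rose and 1 fell with sgPHF8-1, where 15.5% of all genes were called higher and 15.7% lower. With sgPHF8-3, 5 rose and 1 fell, against 9.89% and 10.1%. In either direction 29.6% and 22.2% of them were called, close to the 31.2% and 20% of all genes, and the medians were 0.0042 and 0.04. The 8 calls with sgPHF8-1 became 5 with DESeq2 and 5 without sgPHF8-1 replicate C. Those that rose with both guides were SLC7A11, the cystine transporter (0.56 and 0.67, adjusted p = 6.02e-09 and 2.46e-10), MGST1, a microsomal glutathione transferase (0.41 and 0.20), PRDX1, a peroxiredoxin (0.25 and 0.11), and TRIM16L (0.23 and 0.36). The sgPHF8-1 call of TRIM16L was lost with DESeq2 (adjusted p = 0.155), with no filter on low counts and on leaving out any single library except sgPHF8-1 replicate B and sgPHF8-3 replicates B and C (highest adjusted p = 0.167). With sgPHF8-3, the MGST1 call was lost without sgPHF8-3 replicate C (adjusted p = 0.0549), and the PRDX1 call without sgScr replicate B, sgPHF8-3 replicate A or sgPHF8-3 replicate B (highest adjusted p = 0.101). IDH1, the cytosolic isocitrate dehydrogenase, fell with both (-0.18 and -0.13), and its sgPHF8-3 call was lost without sgScr replicate A (adjusted p = 0.0507). TXN, thioredoxin, was 0.03 with sgPHF8-1 (adjusted p = 0.573) and rose by 0.16 with sgPHF8-3 (adjusted p = 0.000306), a difference between the guides of 0.13 (adjusted p = 0.00499) that lost its call without sgPHF8-1 replicate C (adjusted p = 0.0601). AKR1B10, AKR1C1, AKR1C2, GPX2, UGT1A6, TSPAN7 and GSTM3 were too low to test.

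Of the glutathione genes, 14 of 25 tested were higher and 1 lower with sgPHF8-1 (60% called, against 31.2% of all genes), at a median of 0.13. These 15 calls became 9 without sgPHF8-1 replicate B, a library that stood somewhat apart. With sgPHF8-3, 7 were higher and none lower (28% called, against 20%), at a median of 0.08. CHAC1, which degrades glutathione, rose by 0.89 and 0.97 (adjusted p = 4.23e-07 and 1.13e-07). SLC3A2, the partner chain of SLC7A11, rose by 0.42 and 0.44 (adjusted p = 6.52e-14 and 8.46e-14), and GSTO1 by 0.27 and 0.17. CHAC1, SLC7A11 and SLC3A2 are also known targets of the amino acid stress factor ATF4. GPX1, a glutathione peroxidase, rose by 0.26 with sgPHF8-1 (adjusted p = 1.7e-07), stood at 0.05 with sgPHF8-3 (adjusted p = 0.325) and differed between the guides (-0.20, adjusted p = 6.71e-05).

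Thioredoxin, peroxiredoxin and superoxide genes moved in both directions, with 6 of 20 higher and 4 lower with sgPHF8-1 (50% called, against 31.2% of all genes), and 4 higher and 4 lower with sgPHF8-3 (40%, against 20%). TXNRD2, the mitochondrial relative of TXNRD1, rose by 0.26 and 0.24 (adjusted p = 4.71e-05 and 0.000368), while TXNRD3 fell by 0.53 and 0.69 on the log2 scale (adjusted p = 0.000722 and 6.15e-05). SESN3, a sestrin, also fell (-0.49 and -0.60), as did the methionine sulfoxide reductase MSRB3 (-0.22 and -0.15) and catalase, CAT (-0.12 and -0.20, adjusted p = 0.0176 and 0.000388). SOD2, the mitochondrial superoxide dismutase and a known NF-kB target, rose by 0.48 with sgPHF8-1 (adjusted p = 8.35e-14), stood at 0.02 with sgPHF8-3 and differed between the guides (-0.47, adjusted p = 4.35e-12). TXNIP, the thioredoxin inhibitor, was -0.06 with sgPHF8-1 and 0.25 with sgPHF8-3 (adjusted p = 0.574 and 0.00513), a difference of 0.31 (adjusted p = 0.00155).

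Among 18 iron and heme genes, 2 rose with each guide, 5 fell with sgPHF8-1 and 1 fell with sgPHF8-3. The share called was 38.9% and 16.7%, against 31.2% and 20% of all genes, and the 7 calls with sgPHF8-1 became 4 with DESeq2 and without sgScr replicate A, sgScr replicate B or sgPHF8-1 replicate A. TFRC, the transferrin receptor that brings iron in, rose by 0.44 and 0.27 (adjusted p = 1.37e-16 and 7.66e-10), and SLC39A14, an importer of iron and zinc, by 0.27 and 0.12 (adjusted p = 2.84e-09 and 0.00603). Those that fell with sgPHF8-1 included the ferric reductase CYBRD1 (-0.18, adjusted p = 0.000579) and FBXL5 (-0.17, adjusted p = 0.00221), which marks IREB2 for degradation. The iron-responsive RNA-binding proteins IREB2 (-0.10, adjusted p = 0.0333) and ACO1 (-0.11, adjusted p = 0.0418) and BLVRA (-0.19, adjusted p = 0.0285), which turns biliverdin into bilirubin, were also called lower. All 3 of these calls were lost with DESeq2 and without sgScr replicate A, sgScr replicate B or sgPHF8-1 replicate A. In addition, the IREB2 call was lost without sgScr replicate C or sgPHF8-1 replicate B, the BLVRA call without sgPHF8-1 replicate C, and the ACO1 call in most of the other alternatives (highest adjusted p = 0.115, 0.126 and 0.313). STEAP3, an endosomal ferric reductase, was called lower with sgPHF8-3 (-0.10, adjusted p = 0.0404), which was lost with DESeq2, with limma and without sgScr replicate A or B or sgPHF8-3 replicate B or C (highest adjusted p = 0.271). Ferroportin, SLC40A1, and the hormone gene HAMP were too low to test.

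The NADPH genes beside ME1 were called about as often as all genes, with 3 of 15 higher and 2 lower with sgPHF8-1 (33.3%, against 31.2%), and 2 higher and 1 lower with sgPHF8-3 (20% for both). Without sgScr replicate A, 1 of the 3 calls with sgPHF8-3 was left. MTHFD2, of mitochondrial one-carbon metabolism and also known as an ATF4 target, rose by 0.45 and 0.35 (adjusted p = 1.18e-14 and 4.18e-11). RPE rose by 0.12 and 0.10, the first call being lost without sgScr replicate A (adjusted p = 0.0627) and the second with DESeq2 (adjusted p = 0.123), with no filter on low counts (adjusted p = 0.138) and without any sgScr replicate or sgPHF8-3 replicate A or C (highest adjusted p = 0.174). ME3, the mitochondrial relative of ME1, was -0.21 and 0.23 (adjusted p = 0.107 and 0.0747), the first called without sgScr replicate A (adjusted p = 0.0457), and differed between the guides by 0.44 (adjusted p = 0.0017). NNT, the mitochondrial transhydrogenase, fell with sgPHF8-1 (-0.10, adjusted p = 0.00925) and stood at 0.01 with sgPHF8-3 (adjusted p = 0.916).

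**Figure D5:**
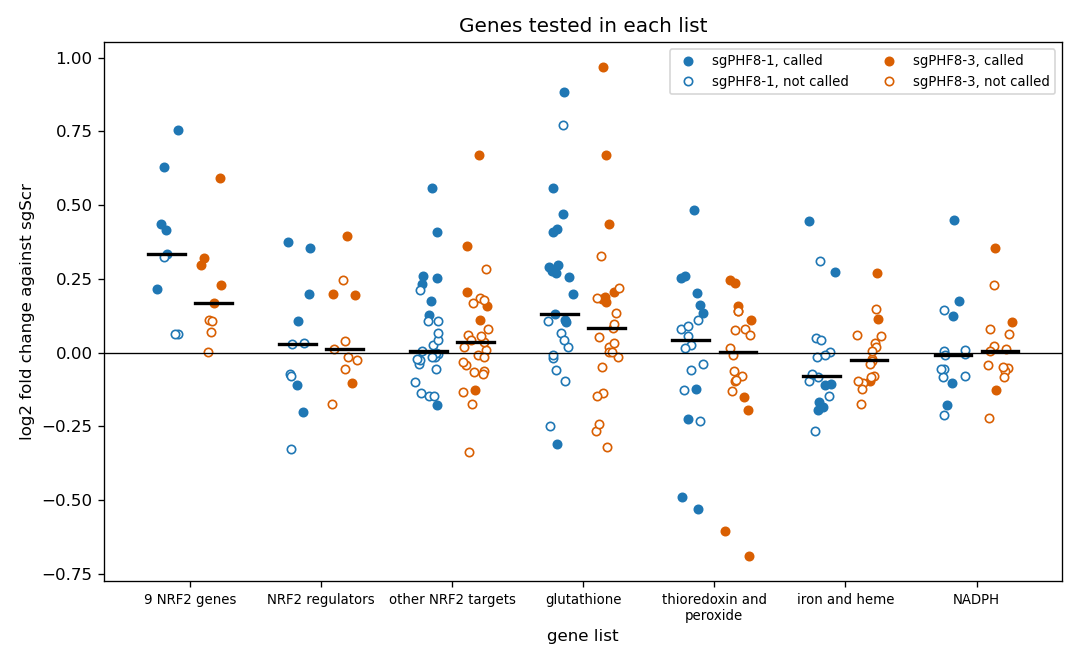
Log2 fold change against sgScr (vertical axis) of every tested gene of the antioxidant set and of 6 related gene lists, with filled points for genes that passed the test, open points for those that did not, and a black line at each median. The 9 antioxidant genes have the highest median with each guide (0.33 and 0.17), and the thioredoxin list holds the lowest points, TXNRD3 (-0.53 and -0.69) and SESN3 (-0.49 and -0.60).

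Genes with the most similar profile over the 9 libraries were listed as a description, by Pearson correlation of log2 CPM, for the 5 genes that rose with both guides. The values rest on 9 points in 3 groups that share their depth and group means. NQO1 ran closest to SERBP1 (0.99), ETF1 and SERPINB7, and HMOX1 to LYRM7 (0.997), PGRMC1 and FRMD6. GCLM ran closest to RCL1 (0.98), PPP4R2 and LYRM7. TXNRD1 was closest to SSR3 (0.997), FTL and BUD31, and FTL to UCA1 (0.997), SSR3 and SSBP1, so that TXNRD1 and FTL shared SSR3.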

How the data were processed

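Total RNA of SKMEL-147 cells (3 groups of 3 replicates) was depleted of ribosomal RNA, made into ScriptSeq libraries and sequenced in pairs on a HiSeq. The authors aligned reads to hg19 with STAR and deposited raw counts per gene (the submitters' processing notes name bcl2fastq, Picard, HTSeq and DESeq2), and they deposited a normalized count table, a signal that equals the counts divided by 1 size factor per sample (13647 of 13659 genes within a relative 1e-06). The annotation version and strand setting are not given in the sources used here, so reads of overlapping genes on opposite strands cannot be told apart. The study names 3 biological replicates and does not say whether each was a separate transduction. The p-values measure the spread between these samples, which was small (common coefficient of variation beyond counting error 0.0287). If the replicates of a group came from 1 transduced pool, differences between pools are not part of that spread.

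The deposited raw counts were tested with edgeR 4.0.16 (R 4.3.3; TMM, filterByExpr, quasi-likelihood, all 9 samples, Benjamini-Hochberg over 14614 genes, called at 0.05). Values shown per sample are the deposited normalized counts, as the rule for the genes asks, and tests use raw counts. On simulated data for sgPHF8-1 against sgScr (14464 genes), 42.4% of changes of 0.25 and 67.3% of changes of 0.5 on the log2 scale were recovered. There only 99 and 98 genes were changed by these amounts, and 114 genes were called, 6 of them falsely, against 4556 in the data. With fewer changed genes the adjusted p is stricter, so these shares do not give the recovery of the real test. Alternatives were DESeq2 1.42.0, limma 3.58.1 on log2(normalized count + 1), RLE scaling, no filter, only the groups compared, a replicate block, the threshold of the study's methods (applied to the p-values of edgeR) and each sample left out. Added after seeing the data, the same test on whole reads recovered from the normalized table (100% of values whole within 0.01 reads) called 4556, 2921 and 1632 genes for sgPHF8-1, sgPHF8-3 and their difference, as the raw counts did. The size factors used for this were derived from the raw counts, so the equal numbers show only that both tables hold the same reads.

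All 9 antioxidant genes and PHF8 are named, all tested regulators, and from each other list up to 5 genes changed alike by both guides and up to 3 that differ between guides. Other genes named were chosen after their values were seen. The genes and lists were chosen with earlier results of these data known, so no list supports another. Genes of the lists that are not named enter only the counts and medians, and 1 further gene was left out of the lists and is not reported here. Gene positions and exons come from GENCODE v44 lifted to GRCh37, and promoters from RefSeq. Read ratios were compared with exact permutation tests (scipy 1.17.1).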

Additional observations from a re-analysis of the deposited data

Results flagged for a closer look

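Several results differed between the guides by the test of that difference. Among the antioxidant genes, the log2 difference of sgPHF8-3 against sgPHF8-1 was -0.12 for NQO1, -0.21 for TXNRD1, -0.31 for FTL and -0.26 for FTH1, and for PHF8 itself it was -0.48. SQSTM1 differed by -0.18, TFRC by -0.17 and SLC39A14 by -0.16. Among redox genes, SOD2 differed by -0.47, GPX1 by -0.20, MGST1 by -0.20, GSTK1 by -0.19, PRDX1 by -0.14, TXNIP by 0.31 and TXN by 0.13. Of the NADPH genes, MTHFD2 differed by -0.10, ME3 by 0.44 and NNT by 0.11. The MTHFD2 call was lost with DESeq2, RLE scaling, no filter, only the groups compared, the replicate block, limma and the study's threshold, and on leaving out any single sample except sgPHF8-1 replicate A or C (highest adjusted p = 0.312). The GSTK1 call was lost with DESeq2 and without sgPHF8-1 replicate A or C or sgPHF8-3 replicate B (highest adjusted p = 0.204), and those for NQO1, MGST1, NNT and TXN were lost with 1 sample left out (highest adjusted p = 0.0643, 0.134, 0.0712 and 0.0601). Single outlying samples were not tested gene by gene. Over all genes, pairs of replicates had a chi-square per degree of freedom of 1.28 to 1.49 in sgScr, where 1 is counting error alone. It was 1.70 to 3.58 with sgPHF8-1, highest for replicates B and C, and 1.52 to 2.80 with sgPHF8-3, highest for replicates A and C.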

How the results depend on the processing

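The antioxidant genes called numbered 6 with sgPHF8-1 in every alternative except the study's threshold (5), and 6 in the mean of both guides (4 by that threshold). With sgPHF8-3 there were 5, falling to 4 with DESeq2, 3 by the study's threshold and 4 to 5 with 1 sample left out. For the difference between guides there were 4, or 2 by the study's threshold and 3 to 5 with 1 sample left out. With the replicate block the counts stayed at 6, 5 and 4, and 6 in the mean. Correlations of deviations from the group means ran from -0.0811 to 0.0509 between same-lettered samples of different groups. Between samples with different letters they ran from -0.0799 to 0.137. No sharing by letter was thus seen, which does not tell how the replicates were prepared. Over all genes the block called 4456, 2830, 1601 and 4317. Of the named genes it ended the calls of TRIM16L and ACO1 with sgPHF8-1 (adjusted p = 0.0507 and 0.0508). It also ended the call of EGFR with sgPHF8-3 (adjusted p = 0.0581) and that of the MTHFD2 difference between guides (adjusted p = 0.0544).

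Over all genes, 4556, 2921, 1632 and 4389 were called (sgPHF8-1, sgPHF8-3, their difference, the mean). The study's threshold called 2198, 1387, 835 and 1709, of which 37.2%, 34.6%, 59.2% and 34.2% were higher. By that threshold, which calls no log2 fold change under 0.25, the calls with sgPHF8-1 fell from 6 to 2 for regulators, 8 to 4 for other NRF2 targets, 10 to 5 for thioredoxin genes, 7 to 2 for iron genes and 5 to 1 for NADPH genes. With sgPHF8-3 they fell from 4 to 1, 6 to 3, 8 to 2, 3 to 1 and 3 to 1, and for glutathione genes from 7 to 3. DESeq2 called 1816 with sgPHF8-3 and 988 between guides, and leaving out 1 sample gave 1022 to 1611 between guides.

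Signs turned only for log2 fold changes near 0 that were not called. SRXN1 with sgPHF8-3 was -0.0044 with no filter and -0.0040 with limma, and -0.101 to 0.0687 with 1 sample left out; NNT with sgPHF8-3 was -0.00067 with no filter and -0.0028 to 0.0178 with 1 left out. With 1 sample left out, RBX1 ran from -0.0522 to 0.0723 (sgPHF8-1) and -0.0764 to 0.0502 (sgPHF8-3), TXNIP from -0.115 to 0.0032 and TXN from -0.0147 to 0.0612 (sgPHF8-1), and with sgPHF8-3 CUL3 from -0.0246 to 0.0301, NFE2L2 from -0.0493 to 0.0047 and SOD2 from -0.0073 to 0.0409. The GCLC difference between guides ran from -0.0054 to 0.11. With sgPHF8-3, IREB2 ran from -0.0737 to 0.0107 and NT5E from -0.0165 to 0.0011. The causes were not tested. SRXN1 had 33 to 49 normalized counts per sample, and BACH2 16.5 to 35.9, so their differences are measured on few reads.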
